A study of Homo sapiens with 18 samples.

Results

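The lysyl oxidase family has 5 genes, LOX, LOXL1, LOXL2, LOXL3 and LOXL4. All 5 were found by Ensembl identifier among the 60603 genes counted in H1650 and the 60649 genes counted in PC9, by poly-A RNA sequencing. H1650 and PC9 are human lung adenocarcinoma cell lines with a mutant EGFR, and the sequenced cells were derivatives of them that colonise the brain. Each line had 3 groups of 3 libraries. The first group had the condition BrM and a control treatment (BrM control), the second the condition Tr-BrM and a control treatment (Tr-BrM control), and the third the condition Tr-BrM with S100A9 inhibited (Tr-BrM S100A9-inh). The EGFR mutation and the brain-metastatic derivation are common to all 6 groups. The meaning of Tr, the means of inhibiting S100A9, the control treatment and whether a derivative is 1 clone were not given in the sources used here. The design sets Tr-BrM control against BrM control and Tr-BrM S100A9-inh against Tr-BrM control within each line, and the second comparison shares its control libraries with the first.

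Lysyl oxidases are secreted, copper-dependent amine oxidases that turn lysines of collagen and elastin into reactive aldehydes, from which the cross-links of the extracellular matrix form. LOX and LOXL1 are made as pro-enzymes that proteases of the BMP1 type cleave outside the cell, while LOXL2, LOXL3 and LOXL4 carry scavenger receptor cysteine-rich domains ahead of the catalytic domain. In carcinomas, LOX is known as a hypoxia-induced gene linked to matrix stiffening and metastasis, and LOXL2 and LOXL3 as partners of SNAI1 in epithelial-mesenchymal transition.

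On GRCh38 with the GENCODE 29 annotation, LOX (ENSG00000113083) lies on the reverse strand of chromosome 5, from 122063195 to 122078360. LOXL1 (ENSG00000129038) lies on the forward strand of chromosome 15, from 73925989 to 73952137. LOXL3 (ENSG00000115318) lies on the reverse strand of chromosome 2, from 74532414 to 74555690, and LOXL4 (ENSG00000138131) on the reverse strand of chromosome 10, from 98247690 to 98268250. The exons of the family cover 5547 bases in LOX, 3637 in LOXL1, 5707 in LOXL2, 4363 in LOXL3 and 3653 in LOXL4.

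Promoters of 4 of the 5 genes were matched in a RefSeq table on GRCh38.p14, whose windows run from 250 bases before to 50 bases after each start. LOXL2 had no entry there, so its promoter was not searched. The 250 bases before the start are shown for 3 genes, LOXL1 and LOXL4 because their RNA moved in opposite directions in PC9, and LOX because it is the member known as hypoxia-induced. Capitals mark GGGCGG, the core of a GC box, and ACGTG, the core of a hypoxia response element, on either strand. Each sequence reads 5′ to 3′ on the strand of its gene, at chr5:122078260-122078509 (reverse) for LOX, chr15:73926212-73926461 (forward) for LOXL1 and chr10:98268195-98268444 (reverse) for LOXL4, and in all 3 the GENCODE 29 gene begins inside or before the window.
LOX: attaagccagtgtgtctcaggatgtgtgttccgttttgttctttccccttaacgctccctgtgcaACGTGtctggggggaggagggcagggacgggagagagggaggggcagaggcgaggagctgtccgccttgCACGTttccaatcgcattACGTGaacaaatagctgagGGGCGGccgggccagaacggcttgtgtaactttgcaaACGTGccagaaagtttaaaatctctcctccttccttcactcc
LOXL1: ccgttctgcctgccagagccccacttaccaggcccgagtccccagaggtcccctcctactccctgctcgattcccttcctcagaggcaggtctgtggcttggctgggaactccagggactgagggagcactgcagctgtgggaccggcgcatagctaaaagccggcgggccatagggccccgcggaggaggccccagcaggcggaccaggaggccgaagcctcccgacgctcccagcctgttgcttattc
LOXL4: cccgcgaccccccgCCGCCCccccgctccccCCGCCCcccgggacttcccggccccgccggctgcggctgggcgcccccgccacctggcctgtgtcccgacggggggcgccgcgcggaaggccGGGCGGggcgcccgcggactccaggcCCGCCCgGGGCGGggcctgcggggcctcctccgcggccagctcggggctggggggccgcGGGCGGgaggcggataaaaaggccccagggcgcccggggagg
The LOX window held ACGTG at 4 positions, starting 185, 116, 98 and 42 bases before the start, and GGGCGG at 1. The LOXL4 window held GGGCGG at 7 positions, 1 of them after the start, had a GC content of 85.3% and held no ACGTG. The LOXL1 window, at 67.3% GC, held neither of these motifs. Among all 35116 promoters of the table, 45.0% held GGGCGG and 21.4% held ACGTG. The E-box CANNTG, read only in some of its forms by SNAI and ZEB factors, can overlap ACGTG. It was found once in LOXL1, as CAGCTG, once in LOXL4, as CACCTG, and not at the LOX start shown, and 68.7% of all promoters held it. TATAAA (11.5% of all promoters), TGANTCA (7.71%) and GGAATG (4928 of 35116 promoters) were in none of these 3 windows. Other entries held GGAATG at 2 positions (the first LOXL3 start), GGGCGG at 2 positions and CANNTG at 3 (the second LOXL3 start), and ACGTG and CANNTG once each (both later LOX starts). The windows of both later LOX starts overlap each other, and their ACGTG and CANNTG are the same bases.

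The H1650 libraries held 17.40 to 27.11 M counts each, the PC9 libraries 18.17 to 21.75 M. Levels below are CPM, counts per M of the TMM-scaled library of each line, and changes are log2 fold changes ± SE from edgeR's quasi-likelihood test, 3 libraries against 3. A gene "rose" or "fell" where it had a Benjamini-Hochberg adjusted p under 0.05 over all tested genes of the line. From Tr-BrM control to Tr-BrM S100A9-inh, S100A9, the gene named in the treatment, fell by 1.67 (log2) in H1650, where it went from 292 to 336 CPM down to 88.2 to 105 CPM. In PC9 it fell by 4.49, from 738 to 759 CPM down to 30.4 to 35.5 CPM. In PC9, replicate 1 of Tr-BrM S100A9-inh stood apart from replicates 2 and 3. The labels do not say whether a group's libraries are separate cultures, and the p-values then reflect the spread of these samples alone, which may be technical. In bulk RNA, fewer cells of a type and less RNA per cell cannot be told apart.

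LOXL2 was the most abundant member of the family in the BrM controls of both lines, and its RNA was lower in Tr-BrM control and between these levels in Tr-BrM S100A9-inh. In H1650, LOXL4 followed the same order of groups, while in PC9 LOXL4 went from under 1 CPM in BrM control to about 10 CPM in both Tr-BrM groups. LOXL1 was lower in both Tr-BrM groups than in BrM control in PC9. LOX and LOXL3 moved by less than 1 on the log2 scale in all comparisons.

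In Tr-BrM control against BrM control, 1 of the 5 members rose and 2 fell in H1650, where 32.2% of all tested genes rose and 31.7% fell. The same counts, 1 higher and 2 lower, were found in PC9, where 29.6% rose and 30.3% fell. In Tr-BrM S100A9-inh against Tr-BrM control, 3 members rose in H1650 (background 15.4% higher) and 1 rose in PC9 (background 26.3% higher), and no member fell in either line (backgrounds 13.8% and 26.1% lower). Against BrM control, the Tr-BrM S100A9-inh libraries had 3 members higher and 2 lower in H1650 (32.5% and 31.2% of all genes) and 1 higher and 2 lower in PC9 (22.7% and 23.6%). With library-size scaling alone, the share of H1650 calls under S100A9-inh against Tr-BrM control that were higher was 40.8% (2201 higher, 3193 lower) in place of 52.8% (2762 higher, 2468 lower), and the same 3 members rose. The median change of the 5 members was -0.02 in H1650 and 0.07 in PC9 for Tr-BrM control against BrM control, and 0.34 and 0.10 for Tr-BrM S100A9-inh against Tr-BrM control. The median of all tested genes was between -0.002 and 0.004 in each comparison. All 5 members passed the low-count filter in both lines.

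The libraries of Tr-BrM control and BrM control did not overlap for 3 members in H1650 (67.5% of all tested genes) and for 3 in PC9 (65.7%). Those of S100A9-inh and Tr-BrM control did not overlap for 3 members in H1650 (39.2%) and 2 in PC9 (56.3%), and those of S100A9-inh and BrM control for 5 members in H1650 (66.7%) and 3 in PC9 (52.9%). The members' shares in Tr-BrM control were thus close to those of all genes.

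**Figure D1:**
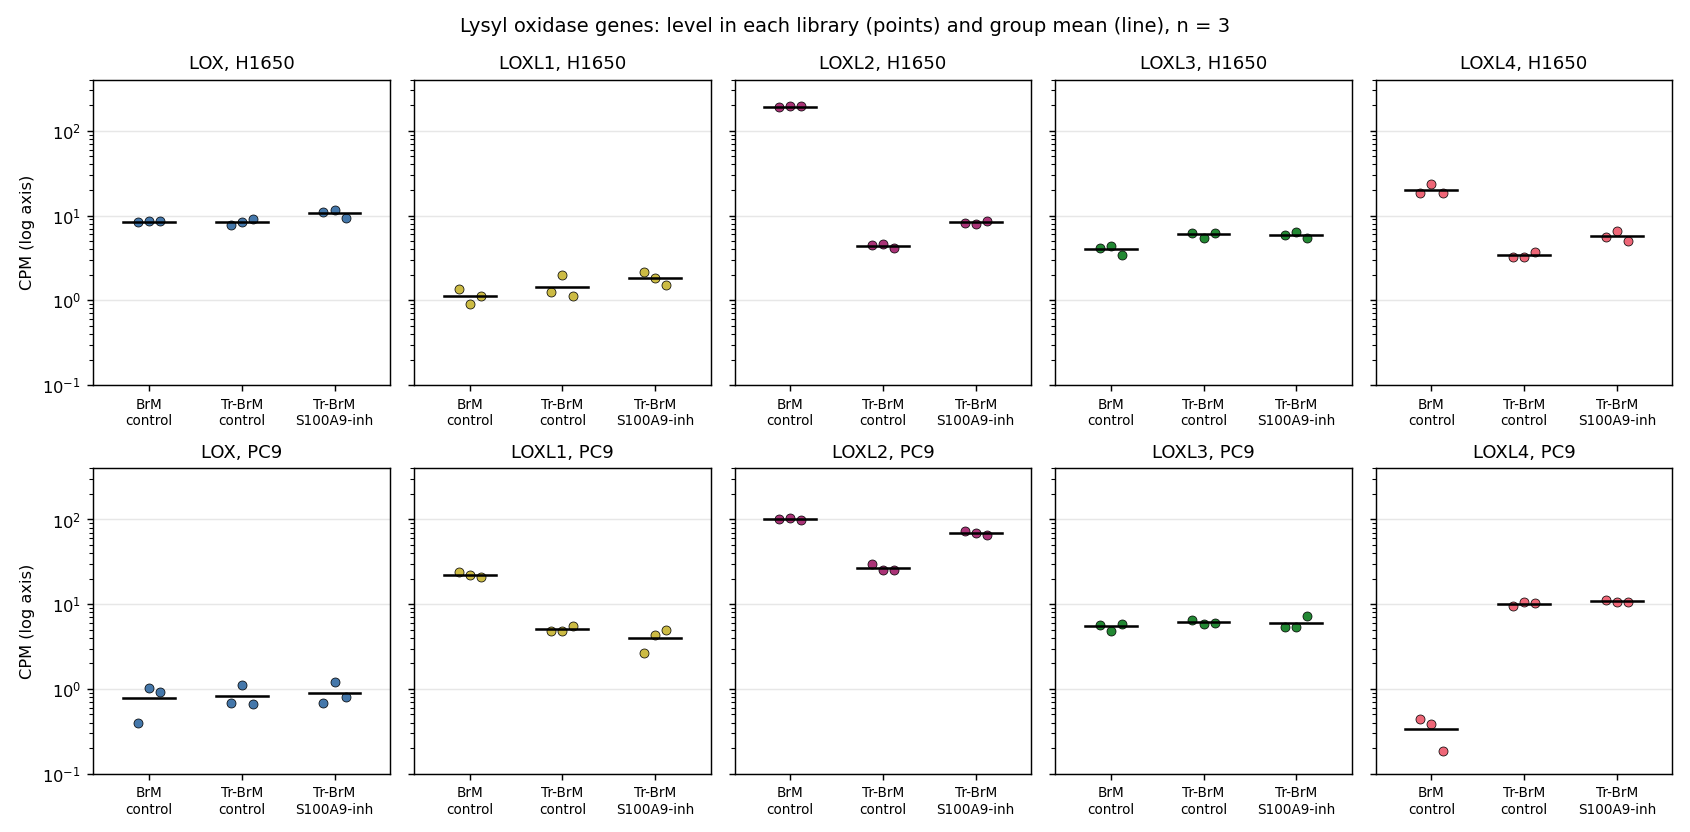
Level of each lysyl oxidase gene in CPM (log axis) in each library (points) of the 3 groups of H1650 (upper row) and PC9 (lower row), with the group mean as a line (n = 3). LOXL2 was near 193 CPM in H1650 BrM control against 4.43 CPM in Tr-BrM control, and LOXL4 in PC9 was at 0.339 CPM in BrM control against 10.1 CPM in Tr-BrM control.

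LOXL2 (ENSG00000134013, on the reverse strand of chromosome 8) encodes a secreted oxidase that acts on basement membrane collagen IV and has also been placed in the nucleus with SNAI1. In H1650, the BrM control libraries had LOXL2 at 189, 194 and 197 CPM, the Tr-BrM control libraries at 4.52, 4.57 and 4.18 CPM, and the S100A9-inh libraries at 8.19, 8.02 and 8.67 CPM. No 2 of these 3 groups overlapped, and the BrM libraries stood far above the other 6. The log2 change of LOXL2 in Tr-BrM control was -5.44 ± 0.0577, or 43.5-fold lower (adjusted p = 4.52e-32), and ranked 30th from the lowest of 17937 tested changes. It rose by 0.90 ± 0.0906 from Tr-BrM control to S100A9-inh, 1.87-fold (adjusted p = 6.65e-09). The S100A9-inh libraries remained 23.3-fold below BrM control (log2 change -4.54 ± 0.0504, adjusted p = 1.23e-31).

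In PC9, the BrM control libraries had LOXL2 at 100, 103 and 99.3 CPM, the Tr-BrM control libraries at 29.5, 25.3 and 25.7 CPM, and the S100A9-inh libraries at 73.6, 69.6 and 64.7 CPM. The order of the groups was that of H1650, again with no overlap, and the S100A9-inh libraries lay closer to BrM control than to Tr-BrM control. LOXL2 fell by 1.91 ± 0.0608 in Tr-BrM control, 3.76-fold (adjusted p = 5.97e-22), and rose by 1.37 ± 0.0622 under S100A9-inh, 2.59-fold (adjusted p = 1.06e-17). Without PC9 S100A9-inh replicate 1, the library that stood apart, the rise was 1.33. The remaining difference between S100A9-inh and BrM control was 1.45-fold (log2 change -0.54 ± 0.0547, adjusted p = 1.26e-09).

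LOXL2 shares 178 exon bases with its antisense gene LOXL2-AS1, which was under 0.7 CPM in each of the 18 libraries, and 120 bases with ENTPD4 on the same strand. ENTPD4, an apyrase of the Golgi and lysosome, moved the other way in H1650, from 37.3 to 38.7 CPM in BrM control to 55.8 to 57.7 CPM in Tr-BrM control (log2 change 0.59 ± 0.0473, adjusted p = 8.19e-12). In PC9, the ENTPD4 change in Tr-BrM control was -0.14 ± 0.0619 and did not pass (adjusted p = 0.0586). From there to S100A9-inh, ENTPD4 fell in PC9 (-0.20 ± 0.0634, adjusted p = 0.00814), where LOXL2 rose. The labels do not say whether strand was used in counting.

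LOXL4 encodes a secreted oxidase of the scavenger receptor subgroup that acts on collagen. In H1650 its level was 18.3, 23.8 and 18.5 CPM with BrM control, 3.22, 3.22 and 3.69 CPM with Tr-BrM control and 5.51, 6.62 and 4.95 CPM with S100A9-inh. The 3 groups did not overlap, with BrM control highest and Tr-BrM control lowest. LOXL4 fell 6.01-fold in Tr-BrM control (log2 change -2.59 ± 0.126, adjusted p = 7.80e-17) and rose 1.68-fold under S100A9-inh (log2 change 0.75 ± 0.147, adjusted p = 0.000218). The S100A9-inh libraries remained 3.57-fold below BrM control (log2 change -1.84 ± 0.112, adjusted p = 1.64e-14).

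In PC9, LOXL4 had 9, 8 and 4 counts in the BrM controls, or 0.441, 0.389 and 0.186 CPM. Its level was 9.48, 10.5 and 10.2 CPM with Tr-BrM control and 11.2, 10.7 and 10.5 CPM with S100A9-inh. Both Tr-BrM groups lay far above BrM control, the reverse of H1650. LOXL4 rose 29.5-fold in Tr-BrM control (log2 change 4.88 ± 0.206, adjusted p = 7.49e-19), ranking 50th from the highest of 16169 tested changes, and the low counts in BrM control make the size of this fold uncertain. From Tr-BrM control to S100A9-inh the change was 0.10 ± 0.111 (adjusted p = 0.471), with an interval of 2 SE from -0.12 to 0.32, and did not pass, although the 2 groups did not overlap. Against BrM control, LOXL4 was 31.6-fold higher under S100A9-inh (log2 change 4.98 ± 0.203, adjusted p = 6.12e-19).

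LOXL3 encodes an oxidase of the same subgroup, known for collagen and fibronectin matrices in cartilage and muscle development. In H1650 it was at 4.11, 4.41 and 3.43 CPM in BrM control, 6.29, 5.49 and 6.27 CPM in Tr-BrM control and 5.84, 6.45 and 5.41 CPM under S100A9-inh. The BrM libraries were the lowest 3, and both Tr-BrM groups overlapped each other. LOXL3 rose 1.49-fold in Tr-BrM control (log2 change 0.57 ± 0.133, adjusted p = 0.000431), and S100A9-inh differed from BrM control by 0.55 ± 0.131 (adjusted p = 0.00057). From Tr-BrM control to S100A9-inh the change was -0.02 ± 0.121 (adjusted p = 0.917), with an interval of 2 SE from -0.26 to 0.22.

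In PC9, LOXL3 was between 4.86 and 7.20 CPM in all 9 libraries, and all pairs of groups overlapped. Its changes were 0.16 ± 0.141 in Tr-BrM control (adjusted p = 0.331), -0.04 ± 0.14 from there to S100A9-inh (adjusted p = 0.833) and 0.12 ± 0.141 between S100A9-inh and BrM control (adjusted p = 0.502), and none passed. LOXL3 exons share 625 bases with HTRA2, a mitochondrial protease gene on the other strand, and 216 bases with the adaptor gene DOK1. HTRA2 was at 34.1 to 36.6 CPM in H1650 BrM control and 35.0 to 39.8 CPM in Tr-BrM control, a change of 0.08 ± 0.0551 (adjusted p = 0.201), while DOK1 fell there by 0.41 ± 0.13 (adjusted p = 0.00693). In PC9 Tr-BrM control against BrM control, HTRA2 rose (0.25 ± 0.096, adjusted p = 0.0254) and DOK1 fell (-0.76 ± 0.181, adjusted p = 0.000554).

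LOX, which gave the family its name, oxidises fibrillar collagens and elastin. In H1650 it was at 8.36, 8.55 and 8.52 CPM in BrM control, 7.75, 8.30 and 9.09 CPM in Tr-BrM control and 11.01, 11.5 and 9.36 CPM under S100A9-inh. BrM control and Tr-BrM control overlapped, and the S100A9-inh libraries were the highest 3. The change in Tr-BrM control was -0.02 ± 0.105 (adjusted p = 0.911), with an interval of 2 SE from -0.22 to 0.19. LOX rose 1.27-fold under S100A9-inh (log2 change 0.34 ± 0.0979, adjusted p = 0.00865), and also stood above BrM control (log2 change 0.33 ± 0.0992, adjusted p = 0.00555).

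LOX was close to its detection limit in PC9, at 8 to 26 counts per library. Its level was 0.392, 1.02 and 0.929 CPM in BrM control, 0.677, 1.12 and 0.665 CPM in Tr-BrM control and 0.677, 1.20 and 0.806 CPM under S100A9-inh. All 3 groups overlapped, and the changes of 0.07 ± 0.389, 0.12 ± 0.382 and 0.20 ± 0.382 did not pass (adjusted p = 0.884, 0.806 and 0.702). At this depth the interval of 2 SE around the change of LOX in PC9 Tr-BrM control was wide, from -0.70 to 0.85. LOX shares 138 exon bases with SRFBP1 on the other strand. In PC9, SRFBP1 was at 6.75 to 8.50 CPM in BrM control and 10.1 to 12.9 CPM in Tr-BrM control. Its change in that comparison was 0.70 ± 0.128 in PC9 (adjusted p = 2.42e-05) and -0.50 ± 0.0848 in H1650 (adjusted p = 9.18e-06). Whether reads of SRFBP1 were counted for LOX was not tested.

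LOXL1 is the member most tied to elastic fibres, which it renews together with fibulins. In PC9 it was at 24.2, 22.2 and 20.7 CPM in BrM control, 4.90, 4.77 and 5.52 CPM in Tr-BrM control and 2.66, 4.33 and 4.94 CPM under S100A9-inh. The BrM libraries stood above the other 6, and both Tr-BrM groups overlapped. LOXL1 fell 4.41-fold in Tr-BrM control (log2 change -2.14 ± 0.128, adjusted p = 3.76e-15) and was 5.63-fold lower in S100A9-inh than in BrM control (log2 change -2.49 ± 0.132, adjusted p = 4.82e-16). The change of -0.35 ± 0.163 from Tr-BrM control to S100A9-inh did not pass (adjusted p = 0.0696). It depended on single libraries, being -0.13 (adjusted p = 0.501) without S100A9-inh replicate 1, the library that stood apart, and -0.53 (adjusted p = 0.0127) without replicate 3.

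In H1650, LOXL1 was low, at 1.36, 0.910 and 1.12 CPM in BrM control, 1.25, 1.98 and 1.12 CPM in Tr-BrM control and 2.13, 1.81 and 1.495 CPM under S100A9-inh. Only BrM control and S100A9-inh did not overlap among the 3 pairs of groups. The changes in Tr-BrM control (0.39 ± 0.27, adjusted p = 0.211) and from there to S100A9-inh (0.29 ± 0.239, adjusted p = 0.407) did not pass. Both depended on single libraries. Without Tr-BrM control replicate 2, the highest of its group, they were 0.065 (adjusted p = 0.872) and 0.62 (adjusted p = 0.115), and over all left-out libraries they ran from 0.065 to 0.55 and from 0.13 to 0.62. The difference between S100A9-inh and BrM control, 0.68 ± 0.256, passed with edgeR (adjusted p = 0.0223) but not with DESeq2 (adjusted p = 0.0974), without BrM control replicate 2 (0.53, adjusted p = 0.12) or without S100A9-inh replicate 1 (0.54, adjusted p = 0.109).

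LOXL1 shares 335 exon bases with the antisense gene LOXL1-AS1. In PC9, LOXL1-AS1 was at 7.99, 7.14 and 7.99 CPM in BrM control, 3.54, 4.43 and 4.04 CPM in Tr-BrM control and 2.86, 3.32 and 2.69 CPM under S100A9-inh. It fell in the same comparison as LOXL1, by 0.94 ± 0.142 (adjusted p = 1.13e-06), and again from Tr-BrM control to S100A9-inh, by 0.43 ± 0.164 (adjusted p = 0.0266). In H1650 it was between 2.06 and 4.16 CPM in all libraries and its change in Tr-BrM control was -0.23 ± 0.197 (adjusted p = 0.326). In H1650 S100A9-inh against BrM control it was lower (-0.48 ± 0.197, adjusted p = 0.0339), although the libraries overlapped. LOXL1 was higher in that comparison (0.68 ± 0.256, adjusted p = 0.0223). Whether reads of 1 of these genes were counted for the other was not tested.

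**Figure D2:**
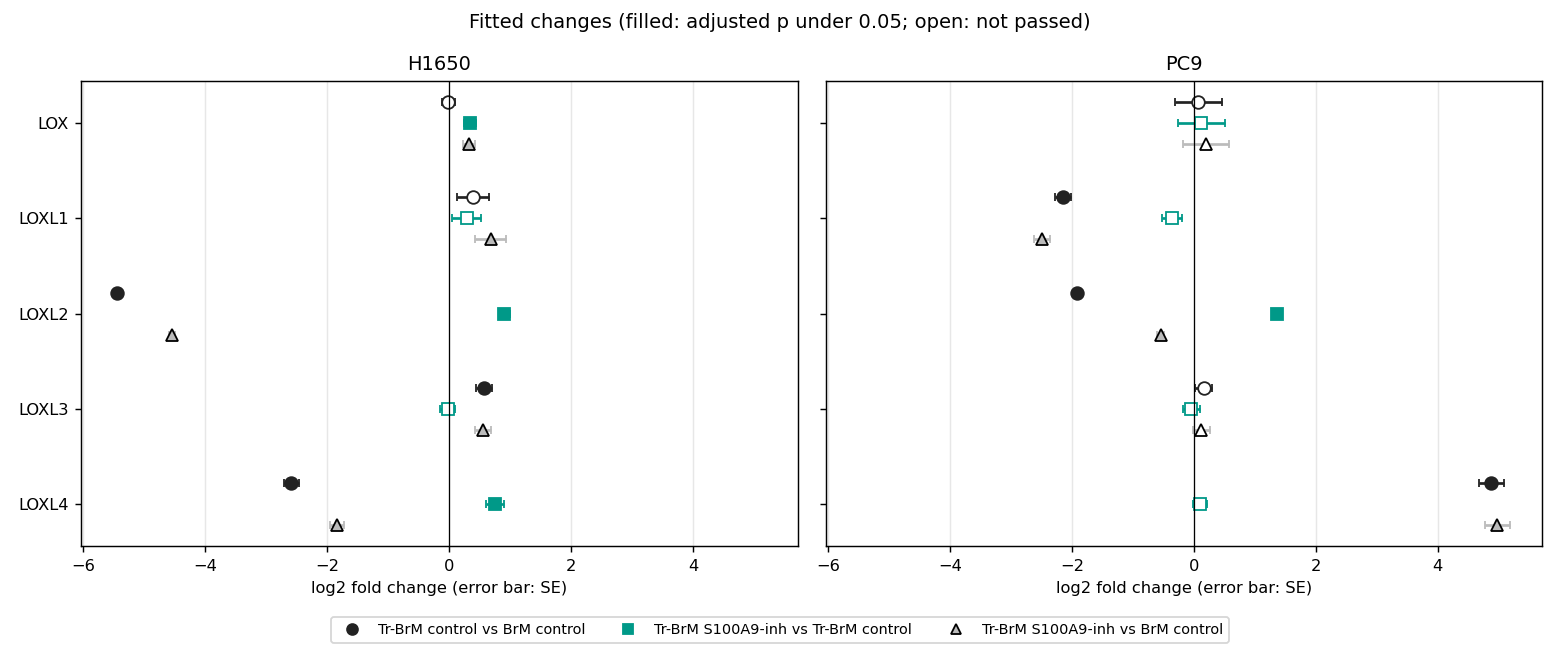
Log2 fold changes of the 5 genes in H1650 (left) and PC9 (right) for the 3 comparisons within each line, with the SE as error bar. Filled symbols have an adjusted p under 0.05 and open symbols do not. LOXL4 lies at -2.59 in H1650 and at 4.88 in PC9 for Tr-BrM control against BrM control, and LOXL2 lies below 0 in both lines.

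The lines were compared by interaction terms in 1 edgeR model of all 18 libraries, with the H1650 change subtracted from the PC9 change. For Tr-BrM control against BrM control, 3 of the 5 members differed between the lines, 2 upward and 1 downward, against a background of 54.6% of 19076 tested genes (27.8% upward and 26.8% downward). LOXL4 differed by 7.47 ± 0.247 (adjusted p = 1.12e-26) and moved in opposite directions. The size of this difference is uncertain, because LOXL4 had only 9, 8 and 4 counts in the PC9 BrM controls. LOXL2 differed by 3.53 ± 0.0979 (adjusted p = 2.91e-29), having fallen in both lines and further in H1650. LOXL1 differed by -2.54 ± 0.305 (adjusted p = 1.94e-09). LOX (0.09 ± 0.345, adjusted p = 0.875) and LOXL3 (-0.41 ± 0.195, adjusted p = 0.0718) did not pass.

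For Tr-BrM S100A9-inh against Tr-BrM control, 2 members differed between the lines, 1 in each direction, against 40.4% of tested genes (20.7% upward and 19.7% downward). The rise of LOXL2 was larger in PC9 by 0.47 ± 0.122 (adjusted p = 0.00148), and the change of LOXL4 was smaller in PC9 (difference -0.65 ± 0.184, adjusted p = 0.00401). LOX (-0.21 ± 0.339, adjusted p = 0.679), LOXL1 (-0.63 ± 0.289, adjusted p = 0.0802) and LOXL3 (-0.01 ± 0.185, adjusted p = 0.999) did not pass.

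**Figure D3:**
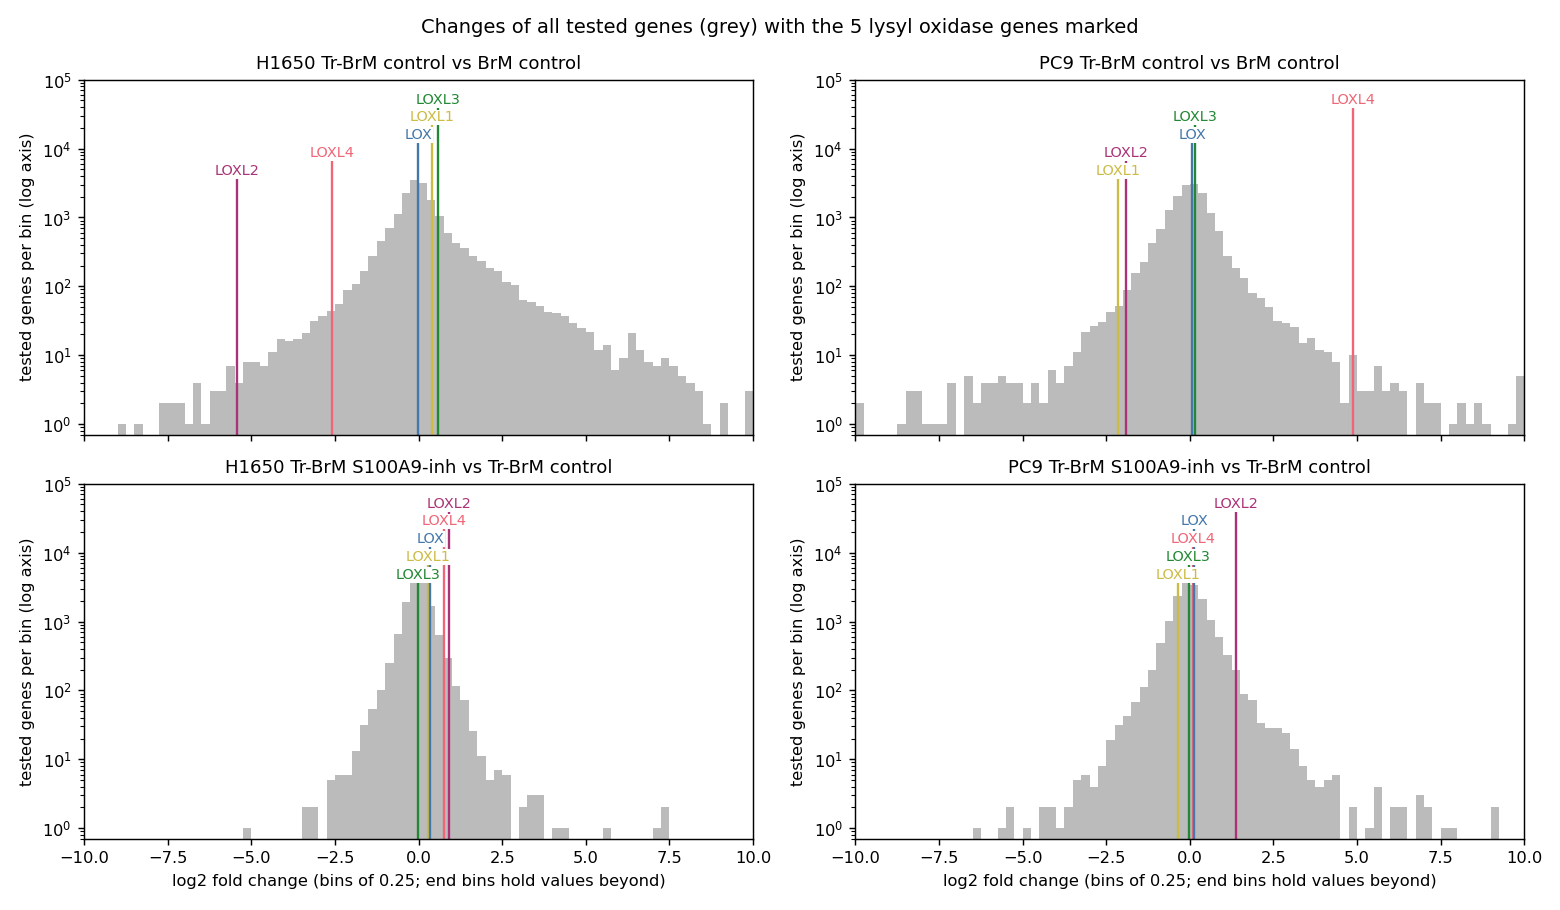
Number of tested genes (log axis) by log2 fold change in bins of 0.25, with the 5 lysyl oxidase genes marked by lines; the end bins also hold values beyond the axis. LOXL2 and LOXL4 in H1650 and LOXL1, LOXL2 and LOXL4 in PC9 lie in the tails for Tr-BrM control against BrM control. LOX and LOXL3 lie within 1 of 0 in the 4 panels.

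Levels of different genes were compared as CPM per kb of exon. In the H1650 BrM controls, LOXL2 stood at 33.8 CPM per kb, followed by LOXL4 at 5.53, LOX at 1.53, LOXL3 at 0.913 and LOXL1 at 0.311. LOXL2 made up 80.4% of the summed family level there, 15.6% in Tr-BrM control and 21.6% under S100A9-inh. In Tr-BrM control LOX (30.3%) and LOXL3 (27.7%) had the largest shares, and these 2 shares overlapped between libraries. The summed level was 42.1 ± 1.16 CPM per kb (SD, n = 3) in BrM control, 4.99 ± 0.134 in Tr-BrM control and 6.78 ± 0.535 under S100A9-inh, and the 3 groups did not overlap.

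In the PC9 BrM controls, LOXL2 stood at 17.7 CPM per kb, followed by LOXL1 at 6.14, LOXL3 at 1.25, LOX at 0.141 and LOXL4 at 0.0927. LOXL2 made up 69.9% of the family there, 45.1% in Tr-BrM control and 68.5% under S100A9-inh. The share of LOXL4 went from 0.364% to 26.5% and 16.7% over the same groups, and that of LOXL1 from 24.3% to 13.4% and 6.19%. The summed level was 25.3 ± 0.566 CPM per kb in BrM control, 10.4 ± 0.286 in Tr-BrM control and 17.7 ± 0.326 under S100A9-inh, again with no overlap. The second gene after LOXL2 was thus LOXL4 in H1650 BrM control and LOXL1 in PC9 BrM control.

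**Figure D4:**
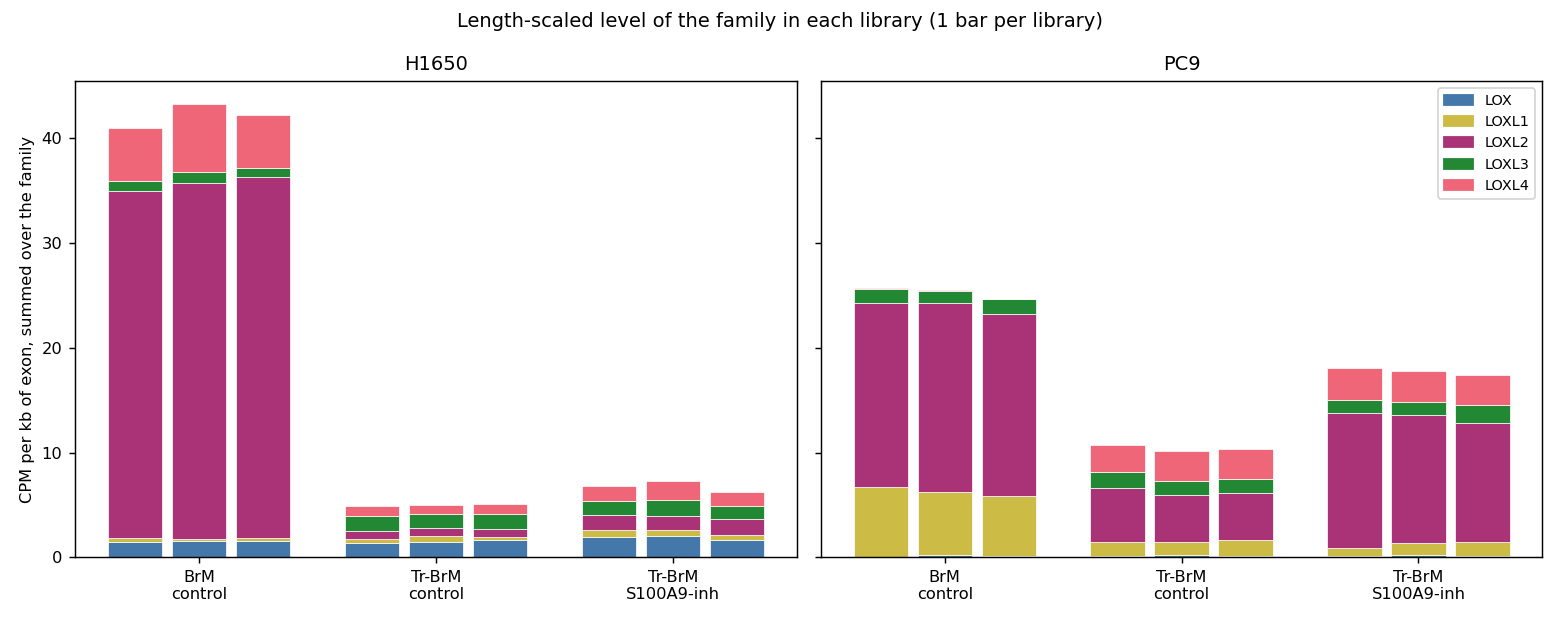
Summed level of the family in CPM per kb of exon in each library (1 bar per library), stacked by gene, in H1650 (left) and PC9 (right). The H1650 bars fall from 40.9 to 43.3 in BrM control to 4.86 to 5.12 in Tr-BrM control, and the PC9 bars from 24.7 to 25.7 to 10.2 to 10.7, with LOXL2 the largest piece of the BrM bars in both lines.

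Genes whose group means ran most like those of each member were ranked by the root mean square difference of log2 CPM, centred within each line, over the 6 groups, among 10225 genes for LOX and LOXL1 and 10224 for the other members that reached 5 CPM in at least 1 group of each line. For LOXL2 they were SYT12 (0.24), a synaptotagmin, LGALS1 (0.30), which encodes galectin-1, and GRAMD1B (0.45), a sterol transport protein. LGALS1 averaged 1168, 35.8 and 42.0 CPM over the H1650 groups BrM control, Tr-BrM control and S100A9-inh, and 901, 361 and 576 CPM over those of PC9. For LOXL4 the nearest were SUN3 (0.56), DNER (0.63) and QPRT (0.65), at larger distances than for the other members, and DNER, a Notch-related receptor, averaged 45.5, 11.1 and 17.0 CPM over the H1650 groups, then 2.25, 37.9 and 16.9 CPM over the PC9 groups.

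For LOXL1 the nearest genes were MLLT11 (0.22), NKILA (0.24) and P2RY6 (0.28), a nucleotide receptor gene at 56.1, 15.4 and 14.4 CPM in the 3 PC9 groups. For LOX they were CYP2R1 (0.03), the vitamin D 25-hydroxylase gene, MCUB (0.04) and ABCF2 (0.05), and for LOXL3 they were TMEM106C, ABCC5 and TMEM41A (0.05 each). A distance also depends on how far the member itself moved, and LOX and LOXL3 moved little. The LOX distances lie below the SE of its change in PC9 Tr-BrM control against BrM control (0.389).

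The other genes of the pathway were taken from 8 lists. Their counts stand beside the shares of all tested genes in the same comparisons. In Tr-BrM control against BrM control these shares were 32.2% higher and 31.7% lower in H1650, and 29.6% and 30.3% in PC9. Under S100A9-inh against Tr-BrM control they were 15.4% higher and 13.8% lower in H1650, and 26.3% and 26.1% in PC9. The lists are short, were chosen with earlier results known and were not tested as sets, so nothing is called particular to a list from its count. Of 9 genes on maturation of the pro-enzymes, 2 rose and 4 fell in H1650 Tr-BrM control against BrM control (median -0.29), and of 5 tested in PC9 none rose and 4 fell (median -0.70). BMP1, which cleaves the pro-enzymes and procollagens, fell in both lines (-0.68 ± 0.0446 in H1650, adjusted p = 8.16e-14, and -0.70 ± 0.0515 in PC9, adjusted p = 5.03e-13). PCOLCE2, an enhancer of procollagen cleavage, was at 23.2, 25.7 and 26.5 CPM in H1650 BrM control, 1.82, 2.45 and 3.16 in Tr-BrM control and 3.60, 3.54 and 3.30 under S100A9-inh. In PC9 it was at 7.40, 7.09 and 8.36 CPM, then 2.45, 2.72 and 2.25, then 8.52, 8.81 and 9.99. PCOLCE2 thus fell in both lines (-3.33 ± 0.119, adjusted p = 5.65e-20, and -1.62 ± 0.147, adjusted p = 6.37e-11) and rose under S100A9-inh in both (0.48 ± 0.157, adjusted p = 0.0197, and 1.87 ± 0.144, adjusted p = 2.81e-12).

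FN1, fibronectin, on which LOX and BMP1 assemble, went opposite ways. It rose by 1.84 ± 0.0289 in H1650 Tr-BrM control (804 to 839 CPM in BrM control, 2908 to 3047 CPM in Tr-BrM control, adjusted p = 2.73e-28) and fell by 4.73 ± 0.0377 in PC9 (11929 to 12023 CPM against 440 to 459 CPM, adjusted p = 6.47e-38). Periostin (POSTN), another scaffold for BMP1, rose by 3.90 ± 0.193 in H1650 (adjusted p = 1.13e-16) and was not tested in PC9. From Tr-BrM control to S100A9-inh, 3 of the 9 maturation genes rose and 1 fell in H1650, and 2 of 5 rose and 1 fell in PC9.

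Copper reaches the lysyl oxidases through uptake, chaperone and pump proteins. Of 9 copper genes tested in H1650, 3 rose and 3 fell in Tr-BrM control, close to the shares of all tested genes (32.2% and 31.7%), and of 8 in PC9, 3 rose and 4 fell (29.6% and 30.3%). ATOX1, the copper chaperone of the secretory pathway, fell in both lines (-0.31 ± 0.0471, adjusted p = 1.98e-06, and -0.42 ± 0.0598, adjusted p = 4.44e-07) and rose under S100A9-inh in both (0.23 ± 0.0462, adjusted p = 0.000246, and 0.31 ± 0.0603, adjusted p = 7.01e-05). The copper pump gene ATP7B rose by 0.68 ± 0.129 in H1650 and fell by 0.999 ± 0.0943 in PC9. Under S100A9-inh, 1 copper gene rose and 1 fell in H1650 and 4 rose and 2 fell in PC9.

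Of the collagens that the family cross-links, 14 of 15 were tested in H1650, where 6 rose and 5 fell in Tr-BrM control (median 0.22), and 10 in PC9, where 1 rose and 8 fell (median -0.81). Among all tested genes 32.2% rose and 31.7% fell in H1650, and 29.6% and 30.3% in PC9. COL4A1 and COL4A2, the basement membrane chains, fell in both lines. COL4A1 was at 95.2, 96.5 and 102 CPM in H1650 BrM control, 40.7, 40.2 and 39.8 in Tr-BrM control and 79.2, 75.3 and 73.4 under S100A9-inh. In PC9 it was at 36.7, 38.3 and 38.1 CPM, then 18.2, 19.99 and 18.8, then 8.61, 9.59 and 8.43. Like LOXL2, COL4A1 fell in Tr-BrM control in both lines (-1.28 ± 0.0445 and -0.99 ± 0.0726), but under S100A9-inh it rose in H1650 (0.92 ± 0.0446, adjusted p = 2.21e-15) and fell in PC9 (-1.09 ± 0.087, adjusted p = 5.48e-12). COL3A1, a fibrillar collagen, rose by 3.26 ± 0.0531 in H1650 Tr-BrM control (adjusted p = 6.58e-28) and was not tested in PC9. Under S100A9-inh, 5 collagens rose and none fell in H1650, and 5 rose and 4 fell in PC9.

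Of elastin and the genes of elastic fibre assembly, 11 of 16 rose and 5 fell in H1650 Tr-BrM control (median 0.52, against 32.2% and 31.7% of all tested genes), and 3 of 13 rose and 7 fell in PC9 (median -0.75, against 29.6% and 30.3%). The fibrillin genes FBN1 and FBN2 moved against each other. FBN2 was at 0.271, 0.773 and 0.651 CPM in H1650 BrM control and 40.9, 41.5 and 44.8 CPM in Tr-BrM control (6.24 ± 0.135, adjusted p = 4.16e-25). FBN1 went from 79.1, 79.5 and 81.6 CPM to 8.48, 7.68 and 8.89 CPM (-3.27 ± 0.072, adjusted p = 5.63e-25), and in PC9 it rose by 1.05 ± 0.136 (adjusted p = 9.02e-08). Under S100A9-inh, 3 of 16 rose and 5 fell in H1650, and 5 of 13 rose and 3 fell in PC9.

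Genes that modify collagen lysines and prolines or fold collagen act before the lysyl oxidases. In H1650 Tr-BrM control, 13 of 17 fell and 1 rose (median -0.60), where 31.7% of all tested genes fell, and in PC9, 9 of 16 fell and 4 rose (median -0.14), where 30.3% fell. PLOD2, the lysyl hydroxylase of collagen telopeptides, was at 413, 396 and 408 CPM in H1650 BrM control, 90.9, 93.9 and 94.7 in Tr-BrM control and 146, 139 and 143 under S100A9-inh (-2.12 ± 0.0337, adjusted p = 3.38e-28, then 0.62 ± 0.0346, adjusted p = 5.09e-14). In PC9 it moved the other way in both comparisons (0.47 ± 0.0504, adjusted p = 2.53e-09, then -0.58 ± 0.0508, adjusted p = 5.31e-11). PLOD1, PLOD3, FKBP10 and SERPINH1, the collagen chaperone, fell in Tr-BrM control in both lines, by log2 changes of 0.40 to 1.96. Under S100A9-inh, 4 of 17 rose and 2 fell in H1650, and 5 of 16 rose and 7 fell in PC9.

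Of other matrix cross-linking enzymes, 4 of 6 were higher and 2 lower in H1650 Tr-BrM control (32.2% and 31.7% of all tested genes), and 2 of 4 were higher and 2 lower in PC9 (29.6% and 30.3%). TGM2, a transglutaminase, fell in both (-1.01 ± 0.0293, adjusted p = 4.08e-22, and -0.82 ± 0.0364, adjusted p = 2.41e-18), and PXDN, which forms the sulfilimine bonds of collagen IV, rose in H1650 (1.60 ± 0.0457) and fell in PC9 (-1.02 ± 0.0372). Under S100A9-inh, 1 of 6 rose and 2 fell in H1650, and 1 of 4 rose and 3 fell in PC9. Of the transcription factors that LOXL2 or LOXL3 partner with in epithelial-mesenchymal transition, 4 of 7 rose and 3 fell in H1650 Tr-BrM control, and none of 5 rose and 1 fell in PC9.

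SNAI1, the factor tied to LOXL2 and LOXL3, fell in H1650 (-1.27 ± 0.075, adjusted p = 6.89e-15) and was at -0.04 ± 0.155 in PC9 (adjusted p = 0.843). Under S100A9-inh, 1 of 7 factors rose and none fell in H1650, and 2 of 5 rose and none fell in PC9. SNAI2 rose from Tr-BrM control to S100A9-inh in both lines. It went from 4.73, 5.74 and 5.004 to 10.3, 9.96 and 10.4 CPM in H1650 (0.97 ± 0.118, adjusted p = 2.08e-07) and from 2.14, 1.80 and 1.48 to 5.13, 4.93 and 4.30 CPM in PC9 (1.41 ± 0.197, adjusted p = 4.65e-07).

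Of the hypoxia genes, the class to which LOX belongs, 11 of 12 fell in H1650 Tr-BrM control and none rose (median -0.86, 31.7% of all tested genes lower), and 9 of 12 fell and 2 rose in PC9 (median -0.33, 30.3% lower). The glucose transporter SLC2A1 fell in both lines (-1.29 ± 0.0313 and -0.38 ± 0.0395), as did EPAS1, which encodes HIF-2 alpha (-1.17 ± 0.0313 and -0.58 ± 0.0336). EGLN3, an oxygen sensor gene, fell in H1650 (-1.55 ± 0.064) and rose in PC9 (1.10 ± 0.0937). LOX itself did not pass in these comparisons. Under S100A9-inh, 4 hypoxia genes rose and 3 fell in H1650, and 10 of 12 rose and none fell in PC9 (median 0.36, 26.3% of all tested genes higher).

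**Figure D5:**
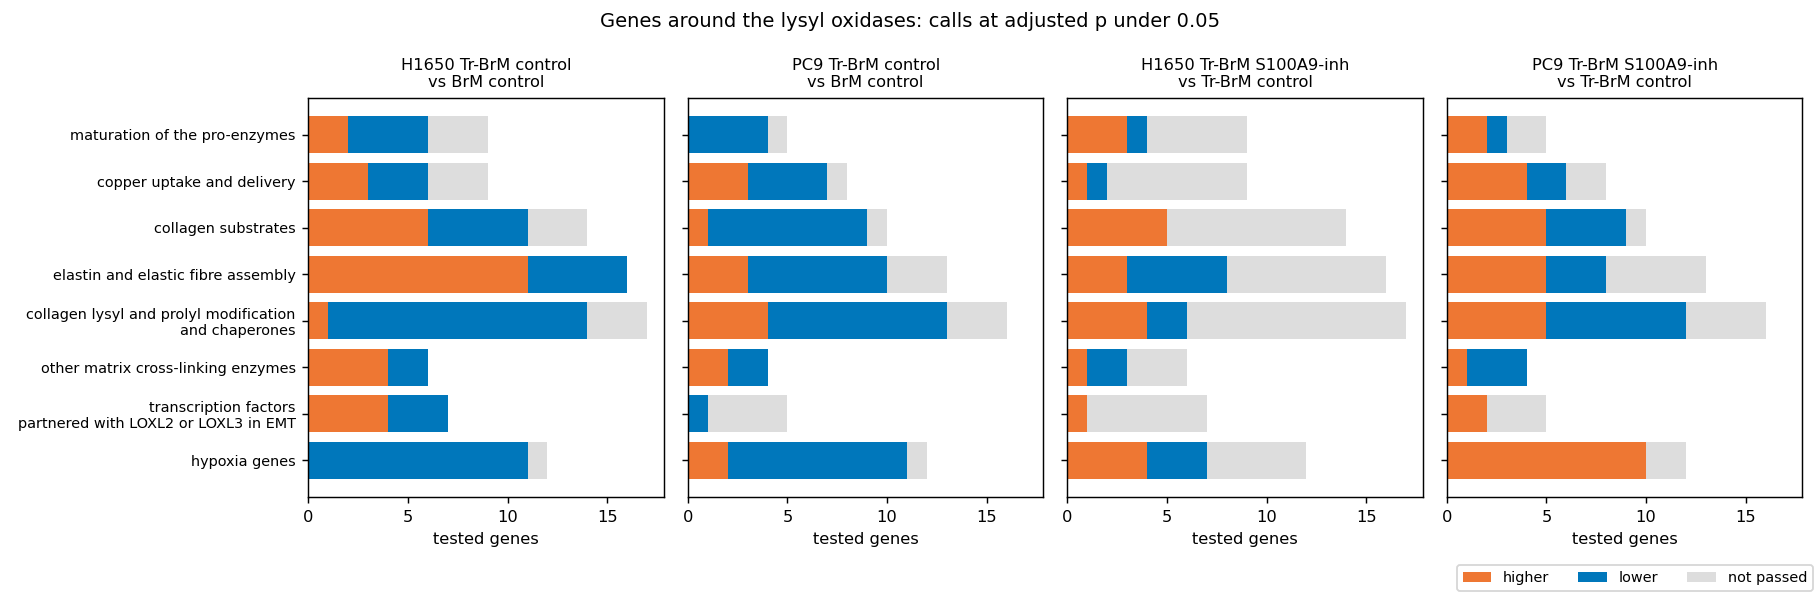
Number of tested genes of each pathway list that were higher (orange), lower (blue) or did not pass (grey) at an adjusted p under 0.05, in 4 comparisons. Collagen modification genes and hypoxia genes are mostly blue for Tr-BrM control against BrM control in both lines, and the hypoxia bar is mostly orange (10 of 12) for PC9 Tr-BrM S100A9-inh against Tr-BrM control.

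Markers of other cell types were read beside these results. In Tr-BrM control against BrM control, 32.2% of all tested genes rose and 31.7% fell in H1650, and 29.6% and 30.3% in PC9. The marker calls stand beside these shares, and the marker lists were not tested as sets. Of 6 epithelial markers, 1 rose and 4 fell in that comparison in H1650, and none rose and 5 fell in PC9. All 6 epithelial markers were at 1 CPM or more in each group, and their summed level was 10787 to 10856 CPM in H1650 BrM control, 9040 to 9372 in Tr-BrM control and 8807 to 9154 under S100A9-inh, and 26079 to 26549, 19992 to 20520 and 21225 to 23378 CPM in PC9. Of 9 fibroblast markers in H1650, 7 rose and 1 fell in Tr-BrM control, where their sum went from 30.9 to 32.8 CPM to 166 to 186 CPM, most of it COL3A1 at a mean of 129 CPM, and was 188 to 197 CPM under S100A9-inh. In PC9 the fibroblast sum was 26.7 to 27.2 CPM in BrM control, 12.8 to 15.2 in Tr-BrM control and 17.4 to 20.2 under S100A9-inh, nearly all of it COL1A1, and LUM and THY1 had no count in any group. COL1A1, COL1A2 and COL3A1 are on both the fibroblast and the collagen list.

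The astrocyte sum in H1650 was 35.1 to 43.1 CPM in BrM control, 267 to 276 CPM in Tr-BrM control and 211 to 223 CPM under S100A9-inh, with 6 of 7 markers higher and 1 lower in the first comparison. In PC9 it was 15.5 to 16.6, 97.7 to 103 and 34.2 to 37.7 CPM over the same groups, with 2 of 3 tested markers higher. The shares of all tested genes in that comparison were 32.2% higher and 31.7% lower in H1650, and 29.6% and 30.3% in PC9. SLC1A3, a glutamate transporter gene, led this sum in both lines, and S100B had no count in PC9. From BrM control to Tr-BrM control in H1650, mean levels went from 8.68 to 63.2 CPM for GFAP and from 2.05 to 34.4 CPM for GJA1. S100B went from 0.845 to 5.73 CPM there, and ALDH1L1, the marker that was lower, from 2.66 to 0.642 CPM. The endothelial sum in H1650 was 7.36 to 8.82, 10.1 to 12.2 and 11.5 to 16.2 CPM (2 of 6 markers higher in Tr-BrM control). In PC9 it was 22.9 to 26.6, 40.7 to 41.4 and 23.6 to 28.4 CPM (3 of 3 tested higher), nearly all of it the cadherin gene CDH5 and PECAM1. The microglia and myeloid sum in H1650 was 88.1 to 91.1, 91.9 to 98.0 and 106 to 110 CPM (4 of 5 tested higher, 1 lower). In PC9 it was 31.0 to 31.7, 12.02 to 13.9 and 18.8 to 21.5 CPM (1 of 2 higher, 1 lower). Most of this sum was CSF1R, the receptor gene for colony-stimulating factor, in both lines, so the sum mainly follows that gene. From BrM control to Tr-BrM control in H1650, mean CSF1R went from 85.9 to 77.5 CPM, and CD68 from 0.0998 to 0.0324 CPM. Means went up there for PTPRC (1.33 to 6.25 CPM), ITGAM (0.515 to 2.75 CPM) and AIF1 (0.455 to 1.61 CPM). The mean of TYROBP also went up, to 6.77 CPM. TYROBP had no count in PC9. The part of other cell types in the changes of the lysyl oxidase genes was not tested.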

How the data were processed

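Poly-A RNA of H1650 and PC9 derivatives was sequenced, per the labels' protocols. Gene counts, not normalized, were deposited by the authors as a table per line (9 libraries a table). Per the submitters' processing notes, STAR, GRCh38, R 4.0.1 and DESeq2 1.28.1 were used. The tool that counted reads, its annotation and its use of strand were not given in the sources used here. Where strand is not used, a gene's reads cannot be told apart from those of an antisense or overlapping partner. Some members carry different identifier versions in the tables (LOX 14 and 15, LOXL2 15 and 16), so the models counted may not be the same in both.

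Groups follow the labels. None of the 18 within-group pairs of libraries was the same in every gene, and their counts differed with a chi-square of 1.542 to 6.51 per degree of freedom, with both pairs of PC9 Tr-BrM S100A9-inh replicate 1 at 6.51 and 5.849 and the pair without it at 2.051. Each line was fitted in R 4.3.3 with edgeR 4.0.16 and limma 3.58.1 (TMM scaling, low counts removed with filterByExpr, all 9 libraries in a quasi-likelihood fit, Benjamini-Hochberg adjustment over 17937 genes in H1650 and 16169 in PC9). The SE was derived as the size of the log2 change divided by the root of F, and can understate the error where few counts carry a large change. The common biological coefficient of variation was 0.0335 and 0.0433, so small differences pass. Line differences were interaction terms in 1 model of 19076 genes. CPM uses the TMM-scaled library sizes of each line, and CPM per kb divides it by the union of GENCODE 29 exons. The script was tested on simulated counts.

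The 5 members, the 8 pathway lists and the 5 marker lists were chosen with earlier results of these data known. The rule for named genes took the members, genes overlapping them, S100A9, the 3 tested genes of each pathway list with the smallest p in Tr-BrM control against BrM control of each line, and the 3 genes nearest to each member's pattern (log2 CPM with a prior count of 0.5). Which of these to print, and which marker genes, was chosen after their values were seen. Alternatives were RLE, upper-quartile and library-size scaling, no low-count filter and one of 1 CPM in 3 libraries, DESeq2 1.42.0, a fold threshold, only the groups compared, and leaving out each library.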

Additional observations from a re-analysis of the deposited data

Results flagged for a closer look

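The response of 3 genes in Tr-BrM control against BrM control differed between PC9 and H1650 by an interaction term in edgeR's quasi-likelihood test (PC9 change minus H1650 change, Benjamini-Hochberg adjusted). LOXL4 differed by 7.47 ± 0.247 on the log2 scale (adjusted p = 1.12e-26), falling in H1650 and rising in PC9. The size of this difference is uncertain, because LOXL4 had only 9, 8 and 4 counts in the PC9 BrM controls. LOXL2 differed by 3.53 ± 0.0979 (adjusted p = 2.91e-29), falling in both lines. LOXL1 differed by -2.54 ± 0.305 (adjusted p = 1.94e-09), falling in PC9 and not passing in H1650. In Tr-BrM S100A9-inh against Tr-BrM control, LOXL2 differed by 0.47 ± 0.122 (adjusted p = 0.00148), rising in both lines, and LOXL4 by -0.65 ± 0.184 (adjusted p = 0.00401), rising in H1650 and not passing in PC9. These are differences between 2 cell lines, each with 3 libraries per group, and the cause was not tested.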

How the results depend on the processing

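Of 760 settings of single genes, 716 kept direction and side of the threshold, 25 changed sign, 13 lost a call and 6 gained one. The sign changes all belong to changes that did not pass. LOX in H1650 Tr-BrM control against BrM control was 0.069 with library-size scaling, 0.0069 with upper-quartile scaling and -0.071 to 0.035 without 1 library. LOXL3 was -0.095 to 0.034 in H1650 S100A9-inh against Tr-BrM control, and in PC9 it was -0.19 to 0.037 there and -0.023 to 0.20 in S100A9-inh against BrM control without 1 library. LOX in PC9 was -0.24 to 0.31, -0.16 to 0.42 and -0.12 to 0.43 over the 3 comparisons. Line differences of LOX ran from -0.23 to 0.32 (Tr-BrM control) and -0.50 to 0.083 (S100A9-inh), and that of LOXL3 under S100A9-inh from -0.16 to 0.054, with 0.046 under library-size scaling. Against a fold threshold of log2 1 (edgeR glmTreat), which asks for larger changes, members higher in H1650 went to 0 in Tr-BrM control (from 1), to 0 under S100A9-inh against Tr-BrM control (from 3) and to 0 against BrM control (from 3). Members lower in PC9 S100A9-inh against BrM control went to 1 (from 2), and line differences under S100A9-inh to 0 (from 2). Without 1 library, members lower in PC9 S100A9-inh against Tr-BrM control were 0 to 1, members higher in H1650 S100A9-inh against BrM control 2 to 3, and members differing between lines 3 to 4 (Tr-BrM control) and 2 to 3 (S100A9-inh). The line difference of LOXL3 in Tr-BrM control passed with library-size scaling (-0.49, adjusted p = 0.0351) and without PC9 BrM control replicate 2 (-0.49, adjusted p = 0.0436). That of LOXL1 under S100A9-inh passed without H1650 S100A9-inh replicate 3 (-0.77), H1650 Tr-BrM control replicate 2 (-0.996) or PC9 S100A9-inh replicate 3 (-0.80). The cause was not tested. The calls of LOXL2, LOXL4 and LOX were lost under no scaling, filter, DESeq2 or left-out library. Those of LOX in H1650 S100A9-inh kept a small margin. With 1 library left out, the edgeR adjusted p of LOX reached 0.0479 against Tr-BrM control and 0.0342 against BrM control. Depth limits LOX and LOXL4 BrM control in PC9, at few counts per library. No paired analysis was possible because the labels give the groups no shared replicate numbers.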
